A study of Sus scrofa and Rattus norvegicus with 8 samples.

Results

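Oxidative detoxification enzymes were read in the adipose transcriptome of 6 pigs. The set held 58 genes of the 25880 gene IDs in the pig table. They were AOX1 and the genes with a symbol of set form in 4 classes: cytochrome P450 (CYP, 29 genes), aldehyde dehydrogenase (ALDH, 16 genes), aldo-keto reductase (AKR, 5 genes) and glutathione S-transferase (GST, 7 genes). After CYP, ALDH or AKR the symbol had to carry a number, letters and a number, and after GST letters and a number. ALDH2 lacks this form and was left out of its class. AOX1 was chosen by its values in these same libraries, as 1 of the genes of largest spread between the pigs, so its levels are given as a description and support nothing. The other 57 genes entered by symbol alone. Many P450 genes of the CYP2B, CYP2C and CYP3A families carry no symbol in the name table used and are not analysed here.

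The pigs were adult Bama females of 2 years, and the tissue was the upper layer of backfat, a subcutaneous depot. Each library is a separate label-given replicate of this 1 group, with no treatment and no second condition, so nothing was tested and no p-value is given. Ribosomal RNA was depleted and expression was deposited as TPM (a length-corrected share of each library's transcripts on a fixed total), which keep no read counts, so the depth of the libraries is unknown. The series also holds 2 pools of inguinal fat from SD rats, which are not used here.

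These enzymes share the work of making reactive or fat-soluble compounds easier to remove. Many P450 enzymes insert oxygen with electrons from POR. Aldehyde dehydrogenases and AOX1 oxidise aldehydes to acids, and aldo-keto reductases reduce the same aldehydes to alcohols. Glutathione S-transferases attach glutathione to the products. Liver carries the broadest set, while fat is known for a narrower one that handles retinoids, fatty aldehydes and oxysterols. AOX1 is a molybdenum enzyme of the cytosol that also oxidises nitrogen heterocycles of many drugs.

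Named nuclear genes held 25.0, 24.1, 26.2, 3.34, 4.73 and 26.3% of the TPM of replicates 1 to 6. Unless stated otherwise, values below are rescaled TPM, in which the 14844 named nuclear genes of each library sum to 1000000. On that scale the median gene was still 0.49 log2 units lower in replicates 4 and 5 than in the other 4, over 12130 genes with a mean of at least 1. The labelled tissue carried its own markers: ADIPOQ, the adipokine adiponectin, had 2437 to 3746 rescaled TPM, and 9 adipocyte markers of 10 listed summed to 20205 to 36821. Skeletal muscle markers (5 of 7 in the table) summed to 2.87 to 15.8, lymphoid markers (6 of 6) to 17.4 to 39.4 and skin markers (5 of 7) to 17.0 to 38.3. Stromal markers (8 of 8) summed to 9856 to 28497, macrophage markers (7 of 7) to 255 to 652, endothelial markers (4 of 6) to 605 to 1322 and erythroid markers (5 of 5) to 118 to 973. In bulk tissue, fewer cells of a type cannot be told apart from less RNA per cell.

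The 250 bases before the start of 3 genes are shown because these genes carry patterns described here: AOX1 for its spread between pigs, CYP2E1 for the low pigs it shares with liver transcripts, and ALDH1A1 as an enzyme usual in fat. The sequences are from the RefSeq annotation of Sscrofa11.1, written 5′ to 3′ on the strand of the gene and ending at the base before the annotated start. Capitals mark matches on either strand to 4 short motifs: GCGTG (the core bound by the AHR and ARNT pair), TGACNNNGC (the antioxidant response element bound by NFE2L2), CCAAT and TATAAA.
AOX1: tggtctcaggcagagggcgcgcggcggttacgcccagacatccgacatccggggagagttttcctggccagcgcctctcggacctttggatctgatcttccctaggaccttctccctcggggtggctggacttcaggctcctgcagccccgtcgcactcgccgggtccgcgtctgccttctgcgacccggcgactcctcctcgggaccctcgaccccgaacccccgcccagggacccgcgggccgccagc
CYP2E1: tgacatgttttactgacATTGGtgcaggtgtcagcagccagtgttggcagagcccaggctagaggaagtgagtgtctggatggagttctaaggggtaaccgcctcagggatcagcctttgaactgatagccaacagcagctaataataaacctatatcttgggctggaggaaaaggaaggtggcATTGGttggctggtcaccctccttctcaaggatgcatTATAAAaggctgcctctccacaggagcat
ALDH1A1: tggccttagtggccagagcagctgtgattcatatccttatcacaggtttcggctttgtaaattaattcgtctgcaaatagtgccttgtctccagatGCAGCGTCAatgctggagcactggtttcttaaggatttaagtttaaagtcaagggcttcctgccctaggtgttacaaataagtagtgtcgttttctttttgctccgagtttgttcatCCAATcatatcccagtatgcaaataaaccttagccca
The AOX1 window lies at chr15:104157498-104157747 on the plus strand, has a GC content of 70.0% and held none of the 4 motifs. In CYP2E1 (chr14:141690487-141690736, plus strand, 50.0% GC) there were 2 CCAAT matches, both on the opposite strand, and 1 TATAAA. The ALDH1A1 window (chr1:226217343-226217592, minus strand, 42.4% GC) held CCAAT once and the antioxidant element once, on the opposite strand. No matches of different motifs overlapped. Among the windows of 19531 protein-coding genes, GCGTG was found in 32.2%, TGACNNNGC in 9.97%, CCAAT in 31.9% and TATAAA in 9.76%. TATAAA began 29 bases before the start of CYP2E1. A match describes the letters of the window and not a bound site.

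Detection was ordinary for a set of named genes. Of the 58 members, 37 (63.8%) exceeded 0.1 TPM as deposited in all 6 libraries, against 67.2% of the 14844 named nuclear genes. In at least 1 library 50 members did so, as did 13352 named genes. CYP2W1 was listed at 0 in every library. The mean was at least 1 rescaled TPM for 46 members and for 12130 of all named nuclear genes. It was at least 10 for 32 members and 8866 of all genes, and at least 100 for 8 members. The median of the means was 16.1 for the members and 16.7 for all named nuclear genes. The 12 members with a mean under 1 were 9 P450 genes, ALDH8A1, ALDH3B2 and GSTT4. Among them were CYP11A1, CYP17A1 and CYP21A2 of steroid hormone synthesis, with means of 0.267, 0.0119 and 0.145.

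By class, P450 genes summed to 1632 ± 357 rescaled TPM (SD, n = 6) and aldehyde dehydrogenases to 1364 ± 276 (SD, n = 6). The other classes had far lower sums over few named genes. The 7 glutathione S-transferases summed to 79.4 ± 10.7 (SD, n = 6) and the 5 aldo-keto reductases to 77.5 ± 13.2 (SD, n = 6). GSTP1, GSTA1, GSTA2 and AKR1C4 were looked for but not found by symbol, so these sums do not give the level of the whole classes. AOX1 averaged 66.9 ± 89.4 (SD, n = 6), a mean that rests on 3 of the pigs. The sum over all 58 members varied little, at 3220 ± 462 (SD, n = 6), from 2667 in replicate 6 to 3713 in replicate 5. The P450 sum was uneven inside, since CYP4V2 and CYP4B1 held 63.8% of it.

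**Figure D1:**
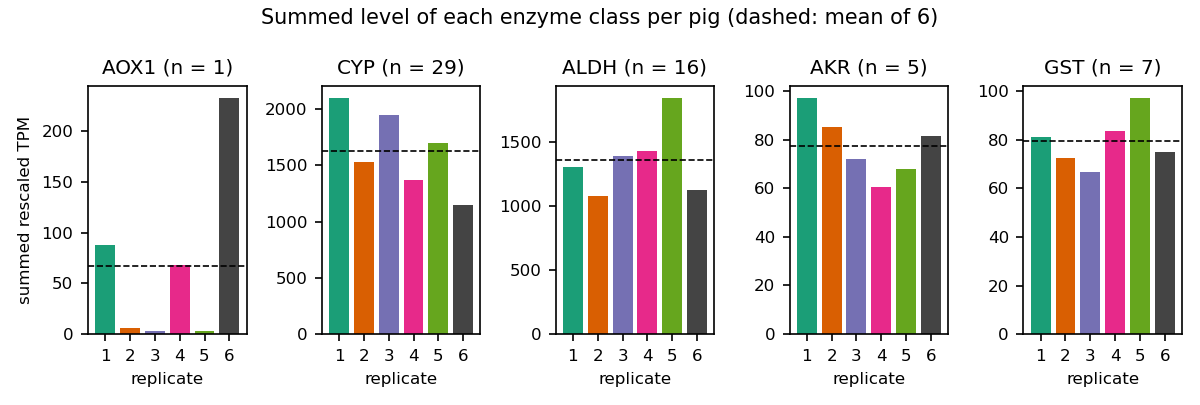
Summed rescaled TPM (vertical axis, starting at 0, a separate scale for each panel) of AOX1 and the 4 enzyme classes in pig replicates 1 to 6. Bars are single libraries and the dashed line is their mean. AOX1 runs from 2.86 to 233, while P450 sums stay between 1148 and 2100 and aldehyde dehydrogenase sums between 1076 and 1848.

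AOX1 had the widest spread of all members with a mean of at least 1. It was deposited at 22.0, 1.50, 0.784, 2.27, 0.135 and 61.4 TPM in replicates 1 to 6, which are 88.1, 6.20, 3.00, 68.1, 2.86 and 233 rescaled TPM. Replicates 1, 4 and 6 were thus high and replicates 2, 3 and 5 low, with the lowest of the first at 11.0 times the highest of the others. On the deposited scale this gap closes between replicate 4 (2.27 TPM) and replicate 2 (1.50 TPM), because replicate 4 has a small named nuclear share. The highest value was 81.6 times the lowest after rescaling. The coefficient of variation (CV, SD over mean) was 1.34, and 16 of the 8866 genes with a mean of at least 10 had a larger one. Replicate 6 stood apart from the other 5 pigs by Dixon's ratio (0.630, just over the critical value for 6 values), and without it the mean fell from 66.9 to 33.6 while the CV was still 1.22.

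AOX1 (ENSSSCG00000029606) spans 104157748 to 104234533 on chromosome 15 (Sscrofa11.1, plus strand) and its longest RefSeq transcript has 35 exons. Its neighbours did not share the pattern. SGO2, a cohesin protector in cell division, ends 7.03 kb away and had 13.1, 14.7, 6.25, 3.38, 3.96 and 13.4 rescaled TPM in replicates 1 to 6. Replicate 4, high for AOX1, was the lowest for SGO2. SPATS2L, 97.2 kb away, ranged from 41.3 to 116 and BZW1, 291 kb away, from 197 to 309. Over the 7 named neighbours within 500 kb, the highest library was 1.29 to 4.34 times the lowest. The neighbouring aldehyde oxidase genes AOX2 and AOX4 carry no symbol in the name table and are not analysed here.

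**Figure D2:**
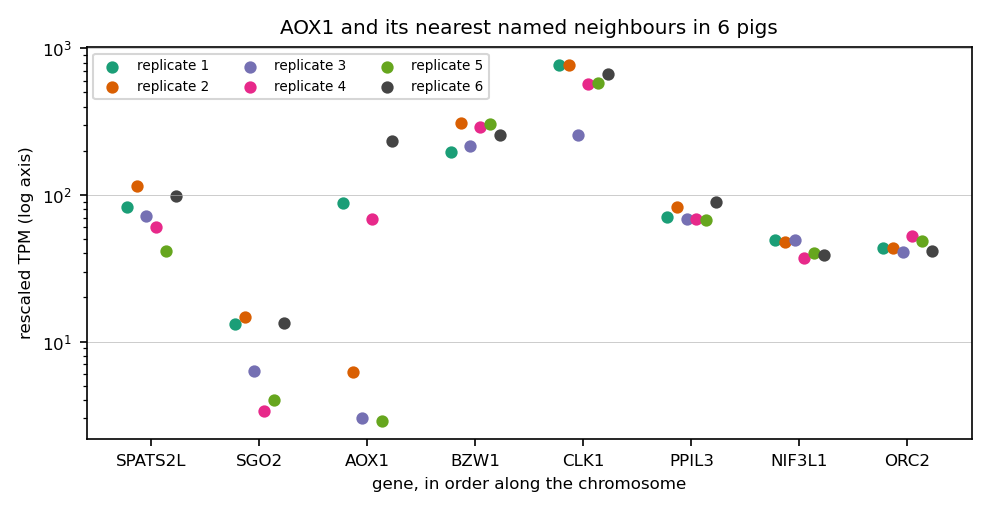
Rescaled TPM (log axis) of AOX1 and its 7 nearest named genes, in their order along chromosome 15 (horizontal axis, not to scale), with 1 point per pig replicate. AOX1 points fall into a high trio (replicates 1, 4 and 6, 68.1 to 233) and a low trio (2.86 to 6.20), while each neighbour stays within a 4.34-fold range.

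The AOX1 pattern was next set beside all genes, by Pearson's r of log2(rescaled TPM + 1) over the 6 libraries, as a description only. Of 8865 genes with a mean of at least 10, 36 had r over 0.9. The 5 most alike were MACO1 (r = 0.98), KEAP1 (r = 0.98), ATRNL1 (r = 0.97), SMUG1 (r = 0.97) and SLC40A1 (r = 0.97). Spearman's rho was 0.94 for MACO1 and KEAP1, 1 for ATRNL1 and SMUG1 and 0.83 for SLC40A1. Their own ranges were narrow. KEAP1, which marks NFE2L2 for degradation, had 62.7, 54.0, 49.7, 60.5, 51.7 and 63.6 rescaled TPM, and SMUG1, a DNA glycosylase, ran from 9.82 to 12.2. MACO1 ran from 80.7 to 95.7 and ATRNL1 from 26.8 to 59.6. SLC40A1, the iron exporter ferroportin, ran from 216 to 471. The highest library was thus 1.19 to 2.23 times the lowest for these 5 genes, against 81.6 times for AOX1. Among members, ALDH16A1 came nearest (r = 0.89), and its level only ran from 19.9 to 28.9. The points of such a comparison are 6 libraries that share their scaling.

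The partners of AOX1 were read next. All 9 genes listed for the molybdenum cofactor and its enzymes were in the table, each with a mean of at least 1, and their sum was 424 ± 78.5 (SD, n = 6). MTARC2, the mitochondrial amidoxime reducing component, led with a mean of 201, followed by MOCS2 (87.4) and GPHN (31.6), which act in making the cofactor. Named after their values were seen, MOCOS, which adds the sulfur that AOX1 needs, ran from 10.8 to 20.6, and XDH, the related xanthine dehydrogenase, from 0.831 to 1.88, over 0.1 TPM as deposited in 4 of 6 pigs. The AOX1 level exceeded that of XDH in 6 of 6 pigs, by 2.96 to 224 times.

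The P450 genes of highest mean were CYP4V2, CYP4B1, CYP2A19, CYP51A1 and CYP39A1. CYP4V2, a fatty acid omega-hydroxylase, had a lowest, median and highest level of 358, 593 and 652 rescaled TPM (mean 554 ± 105, SD, n = 6). CYP4B1, an omega-hydroxylase mainly of tissues other than liver, had 250, 445 and 826 (mean 486 ± 210, SD, n = 6). CYP4B1 was above CYP4V2 in 2 of 6 pigs, so the order of the pair was not fixed. Of the sterol enzymes, CYP51A1, which demethylates lanosterol on the way to cholesterol, averaged 85.9 ± 20.7 (SD, n = 6) and the oxysterol hydroxylase CYP39A1 58.2 ± 14.0 (SD, n = 6). Their ranges overlapped, at 57.2 to 107 and 38.5 to 69.6.

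CYP2A19, the pig enzyme of the CYP2A family that hydroxylates skatole and coumarin, was the exception in evenness. Its levels were 612, 82.3, 100, 142, 118 and 46.7 rescaled TPM in replicates 1 to 6. Replicate 1 was 4.31 times the next pig, and the remaining 5 spanned 46.7 to 142. Without replicate 1 the mean moved from 184 to 97.9 and the CV from 1.16 to 0.37. Leaving aside AOX1, which was chosen for its spread, CYP2A19 (chromosome 6, 9 exons) was the 1 member of 45 (2.22%) with a CV over 1, against 1.24% of 12130 named nuclear genes. The highest pig was not shared: replicate 6, the highest for AOX1, was the lowest for CYP2A19.

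Smaller P450 patterns followed other pigs. CYP27A1, which starts the acidic route of bile acid synthesis in mitochondria, had 104 in replicate 2 and 35.0 to 55.4 elsewhere. CYP1B1, a P450 of extrahepatic tissue, was also highest in replicate 2, at 37.3 against 8.20 to 23.3. The vitamin D hydroxylase CYP2R1 was the steadiest member, at 17.9 ± 1.64 (SD, n = 6), and the fatty acid hydroxylase CYP2U1 was also even, at 50.9 ± 7.59 (SD, n = 6). CYP1A1 and CYP1A2, textbook targets of AHR, lay 16.7 kb apart on chromosome 7 and were both low, with means of 1.61 and 1.15.

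**Figure D3:**
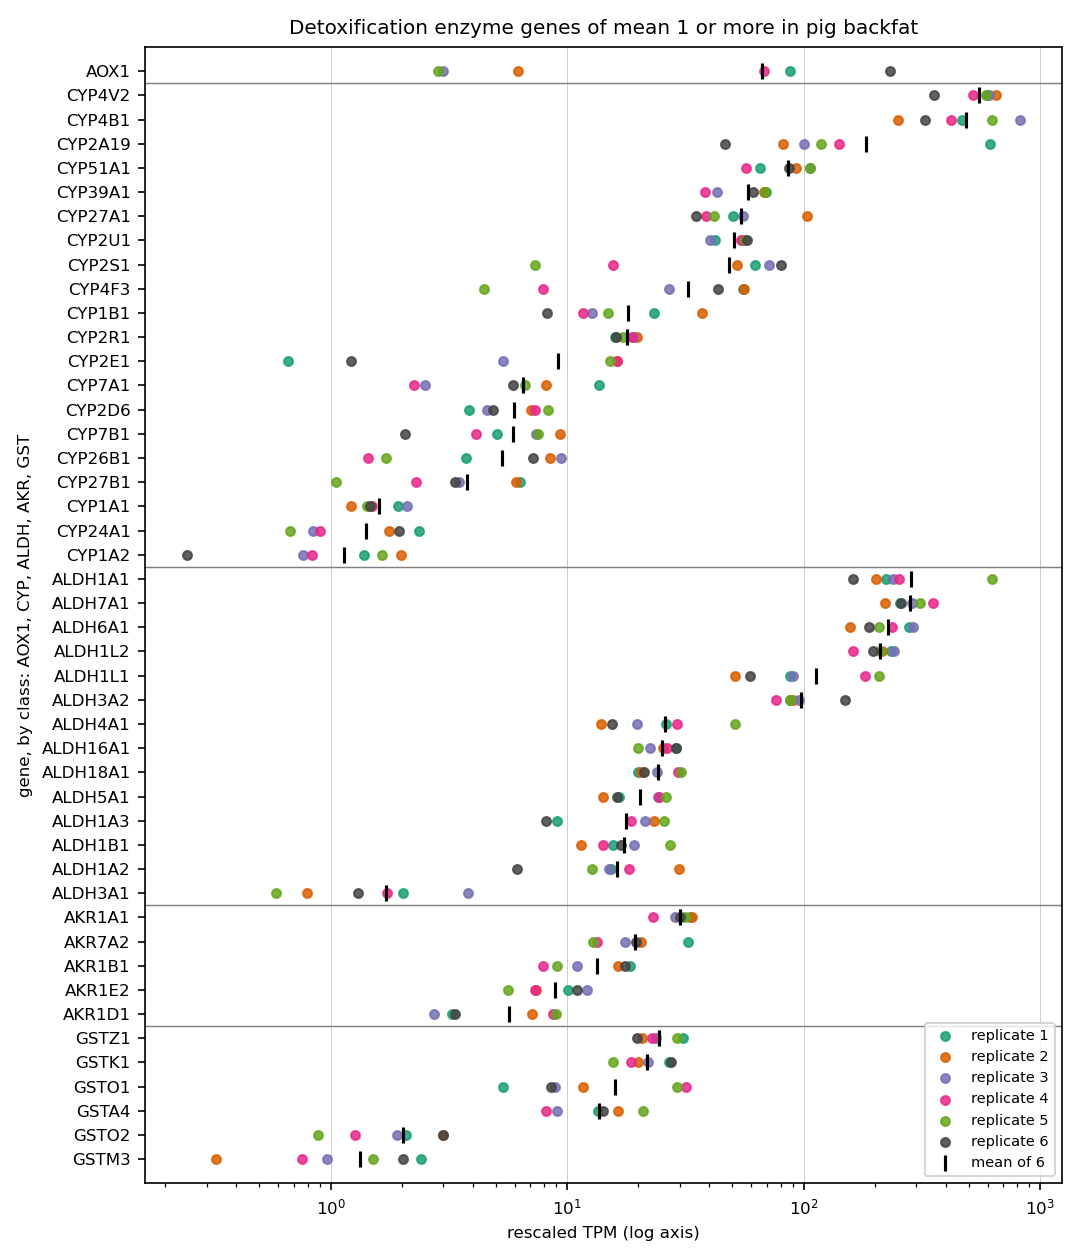
Rescaled TPM (log axis) of the 46 members with a mean of at least 1, grouped by class, with 1 coloured point per pig replicate and a black tick for the mean. AOX1, CYP2E1, CYP2A19, CYP2S1 and CYP4F3 have the widest ranges on this axis. Others are also wide, such as CYP1A2 (0.247 to 1.99), GSTM3 (0.327 to 2.41) and GSTO1 (5.34 to 32.0). ALDH8A1 and 11 other members lie under a mean of 1 and are not drawn.

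Aldehyde dehydrogenases had a median CV of 0.29, against 0.48 for P450 genes, and 14 of 16 had a mean of at least 1. ALDH1A1, which makes retinoic acid from retinaldehyde, had 224, 202, 239, 255, 625 and 162 rescaled TPM, the highest mean of the class. Replicate 5 was 2.46 times the next pig, and without it the mean moved from 285 to 216 and the CV from 0.60 to 0.17. ALDH1A1 exceeded its relatives ALDH1A2 (mean 16.2) and ALDH1A3 (mean 17.8) in 6 of 6 pigs, by 6.79 to 49.0 times and 8.62 to 24.6 times. ALDH7A1, of lysine breakdown, had 281 ± 46.2 (SD, n = 6) and was above ALDH1A1 in 5 of 6 pigs, by median (273 against 232) and in the mean without replicate 5 (275 against 216). ALDH1A1 thus led by mean only through replicate 5, and the valine pathway enzyme ALDH6A1 followed at 227 ± 52.4 (SD, n = 6). The ranges of these 3 genes over the pigs overlapped, and their difference was not tested. ALDH2, left out of the class by the form of its symbol, averaged 174 and ran from 109 to 240.

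The paired folate enzymes ALDH1L2 of mitochondria and ALDH1L1 of the cytosol behaved unlike each other. ALDH1L2 was even, at 210 ± 28.5 (SD, n = 6). ALDH1L1 had 87.6, 51.3, 89.8, 182, 208 and 59.5, so that replicates 4 and 5 lay above all others. Within a library, where no scaling factor matters, the ratio of ALDH1L2 to ALDH1L1 was 0.89 and 1.01 in replicates 4 and 5 and 2.68 to 4.18 in the rest. ALDH3A2, the fatty aldehyde dehydrogenase, had 150 in replicate 6 and 76.7 to 96.1 elsewhere. Its neighbour ALDH3A1, 30.9 kb away on chromosome 12 and best known from cornea, averaged 1.71, a level 57.3 times lower, and had the largest CV of the class (0.68).

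The 5 aldo-keto reductases were all detected in every pig. AKR1A1, the general aldehyde reductase, was the most even at 30.0 ± 3.86 (SD, n = 6), followed by AKR7A2 at 19.4 ± 7.13 (SD, n = 6) and aldose reductase AKR1B1 at 13.4 ± 4.61 (SD, n = 6). AKR1E2 averaged 8.93 and AKR1D1 5.71, the latter with the largest CV of the class (0.51).

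Glutathione S-transferases of this naming were modest. GSTZ1, of tyrosine breakdown, averaged 24.5 ± 4.55 (SD, n = 6) and GSTK1, of mitochondria and peroxisomes, 21.8 ± 4.70 (SD, n = 6). GSTO1 had 32.0 and 29.3 in replicates 4 and 5 and 5.34 to 11.7 elsewhere, the largest CV of the class (0.73). GSTA4, which conjugates lipid peroxidation aldehydes, averaged 13.7 ± 4.73 (SD, n = 6), and GSTO2 averaged 2.02. The microsomal enzymes belong to another protein family and were uneven. MGST1 averaged 1825 and MGST3 526, far above these transferases, while MGST2 averaged 3.08. FMO2, a flavin monooxygenase, averaged 286, and the 22 genes of 30 in that wider detoxification list summed to 3764 ± 1088 (SD, n = 6). All 22 had a mean of at least 1.

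Electron donors and regulators completed the pathway. CYB5R3, the cytochrome b5 reductase, averaged 663, CYB5A 236 and CYB5B 133, and all 6 donor genes of 7 listed had a mean of at least 1 and summed to 1165 ± 190 (SD, n = 6). POR averaged 103 and ran from 32.5 to 184, FDX1 averaged 26.6 and FDXR 3.92, all named after their values were seen. Of 14 sensors and regulators, 11 had a mean of at least 1, led by ARNT (496), PPARG (453) and NFE2L2 (406), and the sum was 2083 ± 319 (SD, n = 6). Named after their values were seen, the liver regulator HNF4A averaged 1.17, the drug sensors NR1I2 and NR1I3 5.57 and 0.64, and AHR 52.6.

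Enzymes of hepatic type were then set against those usual in fat. Of 40 listed hepatic enzymes 9 were in the table under a symbol, and of 14 usual in fat 11 were, so the sums cover unequal parts of the lists. The hepatic sum was 748, 189, 226, 392, 420 and 138 in replicates 1 to 6 and the fat sum was 1231, 938, 1600, 1130, 1711 and 967. The fat sum was the higher in 6 of 6 pigs. The log2 ratio of the sums, which no library factor can change, was -2.04 ± 0.81 (SD, n = 6), from -2.82 in replicate 3 to -0.72 in replicate 1. Hepatic enzymes thus held 20.8% ± 9.72 (SD, n = 6) of the total of both lists.

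Most of the hepatic sum came from CYP2A19 and the folate enzyme ALDH1L1, which had the only means over 100 on that list. Without that pair the hepatic sum was 31.3 to 93.1. ALDH4A1, of proline breakdown, averaged 26.0 ± 13.7 (SD, n = 6) and was highest in replicate 5 (51.2). The remaining 6 averaged under 10. Of these, CYP2E1, the ethanol oxidising P450, averaged 9.15 and CYP7A1, the rate-limiting enzyme of bile acid synthesis, 6.51. The drug oxidising CYP2D6 averaged 5.99 and AKR1D1, a steroid reductase of bile acid synthesis, 5.71. CYP1A2 averaged 1.15 and ALDH8A1, of tryptophan breakdown, 0.784. The fat list was led by CYP4B1, ALDH1A1 and ALDH6A1. Of its genes 11 of 11 had a mean over 10, where 8866 of 14844 named nuclear genes had at least 10. Both lists were chosen with earlier results of these data known, so these levels are a description.

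CYP2E1 shared its low pigs with the liver markers. It had 0.658, 16.3, 5.35, 16.3, 15.1 and 1.22 rescaled TPM in replicates 1 to 6, low in replicates 1 and 6 and high in 2, 4 and 5. ALB, the albumin gene, had 85.7, 794, 326, 772, 1091 and 47.6, low in the same 2 pigs. As deposited, CYP2E1 had 0.164, 3.92, 1.40, 0.544, 0.716 and 0.322 TPM in replicates 1 to 6. Replicates 1 and 6 were again lowest, but replicate 2 stood apart and replicates 4 and 5 were below replicate 3. Within a library the ratio of CYP2E1 to ALB varied 3.34-fold, from 0.00768 to 0.0257, while ALB itself ran from 47.6 to 1091. Of 16 liver markers 14 were in the table, 13 with a mean of at least 1, and 10 of these 13 had their 2 lowest values in replicates 1 and 6, against 2.94% of all genes with such a mean. These replicates were singled out after the ALB values were seen. The summed liver markers were 348, 1409, 635, 1620, 1878 and 219, FGB ran from 10.7 to 335, and SERPINA1 was at 0 in 5 of 6 libraries. The part of liver RNA in the CYP2E1 values was not tested.

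Other hepatic enzymes shared these pigs in part or not at all. AKR1D1 had 3.27, 7.13, 2.75, 8.74, 9.0 and 3.37, high in the 3 pigs of highest ALB. ALDH8A1, at 0, 0.372, 0, 2.78, 1.23 and 0.321, never exceeded 0.1 TPM as deposited. CYP2D6 ran from 3.84 to 8.32, also with its 3 highest values in replicates 2, 4 and 5. CYP1A2 had its highest values in replicates 2 (1.99) and 5 (1.64) and its lowest in replicate 6 (0.247), but was lower in replicate 4 (0.837) than in replicate 1 (1.38). As deposited, CYP1A2 was under 0.1 TPM in replicates 4, 5 and 6 (0.0280, 0.0778 and 0.0651). CYP7A1 was highest in replicate 1 (13.6) and lowest in replicate 4 (2.25, or 0.0752 TPM as deposited). CYP2A19 was highest where ALB was next to lowest, and the ratio of CYP2A19 to ALB varied 68.9-fold.

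The AOX1 values were also set beside liver and kidney markers. AOX1 was high in replicates 1 and 6, where liver markers were lowest, and in replicate 4, where they were near their highest. Kidney markers (11 of 12 in the table, 4 with a mean of at least 1) summed to 35.2, 10.1, 6.70, 2.49, 2.78 and 32.8, led by LRP2, and UMOD had 8.57, 0.401, 1.13, 0, 0 and 8.04. Replicates 1 and 6 were high for both AOX1 and kidney markers. Replicate 4 had 68.1 rescaled TPM of AOX1, the lowest kidney sum and UMOD at 0. Adrenal markers (7 of 8 in the table, DBH and TH at 0 in every library) summed to 5.83 to 8.75. The part of other tissues in the AOX1 values was not tested.

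**Figure D4:**
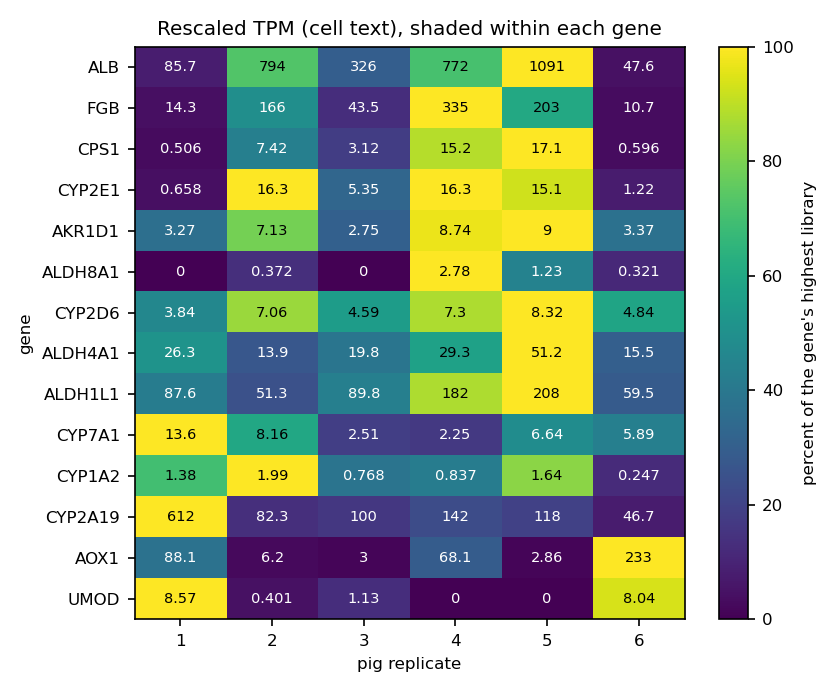
Rescaled TPM (number in each cell) of 3 liver markers, the 9 hepatic enzymes, AOX1 and the kidney marker UMOD (rows) in pig replicates 1 to 6 (columns), shaded as a percentage of the highest library of each gene. CYP2E1 is dark in replicates 1 and 6 as ALB is, while CYP2A19 is bright in replicate 1 alone and AOX1 in replicate 6.

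The spread between pigs was then compared with that of all genes, without a test. The median CV was 0.42 over the 46 members with a mean of at least 1 and 0.33 over all 12130 such genes. Both medians were smaller without replicate 5, at 0.32 and 0.29, and without replicates 4 and 5, at 0.27 and 0.19. On deposited TPM the same genes had 0.70 and 0.70. In 5 of 46 members (10.9%) 1 library stood apart by Dixon's ratio, against 4.83% of all genes, and since AOX1 was chosen for its spread the count without it is 4 of 45 (8.89%). The count is small and moves with the setting. It was 3 (6.52%) without replicate 2, 5 or 6, where 3.69, 9.92 and 4.36% of all genes were marked, so that without replicate 5 the share of members was below that of all genes. It was 3 on the log2 scale (3.02% of all genes) and on deposited TPM (1.39%), and 8 (17.4%) after quantile normalization (5.66%). The 5 genes were marked in different pigs, CYP2A19 in replicate 1, CYP27A1 in replicate 2, ALDH1A1 in replicate 5, and AOX1 and ALDH3A2 in replicate 6.

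Replicates 4 and 5, the libraries of small named nuclear share, were compared with the other 4. Both lay above the others for 9 members (19.6%), against 10.4% of all genes, and both below for 9 (19.6%), against 50.1% of all genes. These shares depend on the scaling: with each library centred on its median gene, 19 members (41.3%) were above, against 31.2% of all genes, and 4 (8.70%) below, against 25.4%. Relative to the median gene, 35 of 46 members were higher in replicates 4 and 5, against 6065 of 12130 genes, a share set by the use of a median. The median member differed by -0.05 log2 units on the rescaled scale, where the median gene differed by -0.49.

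The classes are given one by one, without a test. All 14 aldehyde dehydrogenases with a mean of at least 1 were above the median gene, though ALDH3A1 was 0.05 log2 units lower in replicates 4 and 5 when the libraries were centred. ALDH1L1 (1.46 log2 units), ALDH4A1 (1.04) and ALDH1A1 (0.96) were the highest of the class on the rescaled scale. Among P450 genes 14 of 20 were above the median gene, and the set included the extremes of all members, CYP2E1 at 1.90 and CYP4F3, a leukotriene omega-hydroxylase, at -2.68. Of the glutathione S-transferases 5 of 6 were above the median gene, and of the aldo-keto reductases 2 of 5. AOX1, at -0.77, was below it. CYP2S1, a P450 of epithelia, had 15.7 and 7.33 in replicates 4 and 5 and 52.5 to 80.0 elsewhere, and CYP4F3 had 7.94 and 4.47 against 27.0 to 55.8. The retinoic acid hydroxylase CYP26B1 was likewise low, at 1.43 and 1.71 against 3.73 to 9.41. As deposited, these 2 low values were 0.0479 and 0.0808 TPM, under the detection threshold of 0.1 TPM. CYP2S1, CYP4F3 and CYP26B1 stayed below the other pigs when the libraries were centred. Liver markers were also high in replicates 4 and 5, where 6 of the 13 with a mean of at least 1 lay above all other pigs, against 10.4% of all genes. Replicate 2 was high for them too, with a sum of 1409 against 1620 and 1878 in replicates 4 and 5. The part of any of this in the enzyme values was not tested.

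**Figure D5:**
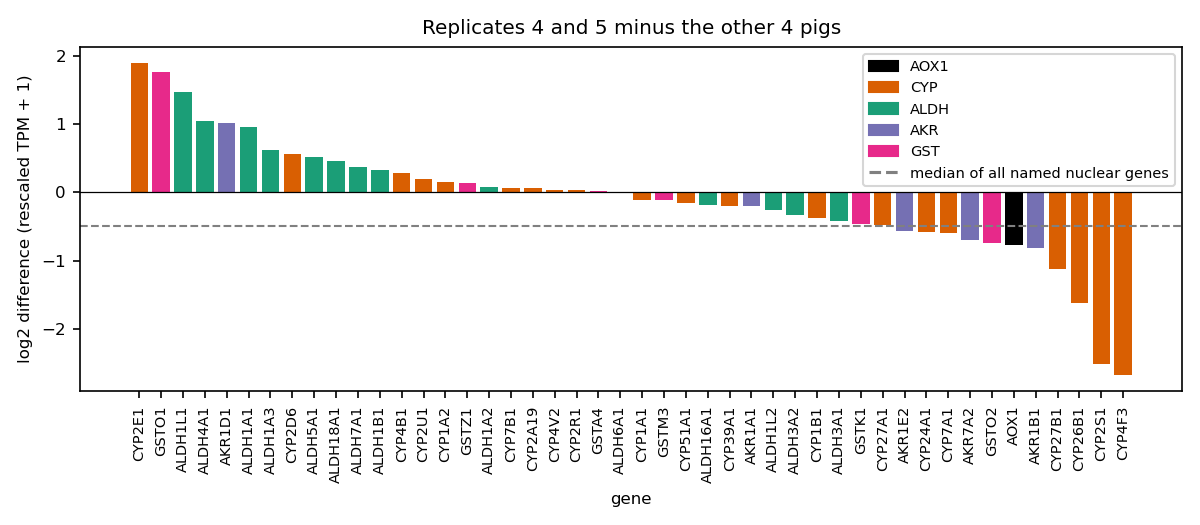
Difference in mean log2(rescaled TPM + 1) between replicates 4 and 5 and the other 4 pigs (vertical axis) for each of the 46 members, ordered by size and coloured by class. The dashed line is the median of all named nuclear genes (-0.49), the black line is 0, and green aldehyde dehydrogenase bars all end above the dashed line.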

How the data were processed

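RNA-seq values of backfat from 6 pigs were used. Per the labels, total RNA was extracted, depleted of ribosomal RNA, built into stranded libraries and sequenced on an Illumina platform. The authors computed TPM per gene with Kallisto 0.43.0 on Sscrofa11.1, per the submitters' processing notes, and deposited 1 table per species. TPM hold no counts, so depth is unknown, no counting error can be given, and the precision of a value is the spread between pigs, n = 6. The rat table pairs no IDs with names and was left out.

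Symbols came from a name table by ID and named 14857 of 25880 IDs, 13 of them mitochondrially encoded. Of the members, 41 of 58 matched RefSeq by symbol, for positions only. No member had the same values as another ID, but transcript quantification can split reads between near-identical P450 genes, which was not checked. TPM were divided by the named nuclear total of each library (rescaled TPM). Detection was over 0.1 TPM, spread was the CV at a mean of at least 1 rescaled TPM, and a library stood apart above Dixon's 95% critical value for 6 values. The log2 scale used a pseudocount of 1, so it understates differences of low genes. Python 3.11.15, pandas 2.3.3, numpy 2.4.6 and pysam 0.24.0 were used.

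The members and lists were chosen with earlier results of these data known. Genes named by rule were AOX1, the 5 most abundant of each class and its member of largest CV, the hepatic and fat lists, members with a library apart, members at 0 throughout, the 5 genes most like AOX1 and the 3 most abundant of each pathway list. Other genes were named after their values were seen. Alternatives tried were other thresholds, deposited TPM, median-centring, quantile normalization, log2 values, list medians, Spearman's rho, another pseudocount, and leaving out each replicate or replicates 4 and 5 together. A gene of the regulator list and a promoter window are not reported here.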

Additional observations from a re-analysis of the deposited data

Results flagged for a closer look

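In 5 members 1 pig stood apart from the other 5 by Dixon's ratio at its 95% critical value, which chance alone gives in about 1 of 20 groups. ALDH1A1 had 625 rescaled TPM in replicate 5. CYP2A19 had 612 in replicate 1. AOX1 had 233 in replicate 6, a gene chosen for its spread. ALDH3A2 had 150 in replicate 6, against at most 96.1 in the other 5 pigs. CYP27A1 had 104 in replicate 2, against at most 55.4. Of 5 scales (deposited TPM, rescaled TPM, median-centred, quantile normalized and log2), ALDH1A1 and CYP2A19 were marked on 4, AOX1 on 3, ALDH3A2 on 2 and CYP27A1 on 1.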

How the results depend on the processing

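Detection at over 1 TPM left 14 members in all 6 libraries. The share of all genes at that threshold is not given here, so the fall cannot be read as particular to the members. Class sums move with the scale by construction: as deposited they were 305 (P450), 231 (aldehyde dehydrogenases), 15.1 (aldo-keto reductases) and 13.7 TPM (glutathione S-transferases), and median-centred 341, 297, 15.8 and 17.0. The median CV of members was 0.329 at a mean of at least 10, 0.479 with no filter, 0.680 as deposited and 0.473 median-centred, with the filter of at least 1 set on those scales. It was 0.275 without replicates 4 and 5 together and 0.324 to 0.425 without single replicates. Members with 1 library apart numbered 3 on the log2 scale, 3 as deposited and 8 after quantile normalization. Median-centred they numbered 7 (15.2%), against 5.66% of all genes. Without replicates 4 and 5 together they numbered 3 (6.52%), against 6.01% of all genes. Without single replicates they numbered 3 to 6 (3 without replicate 2, 5 or 6). The share was 13.0% without replicate 4, against 11.6% of all genes, and 13.0% without replicate 3, against 3.99%. Without replicate 1 the share was 10.9%, against 4.37%. Median-centred, replicates 4 and 5 lay above the others for 19 members (41.3%), against 31.2% of all genes, and below for 4 (8.70%), against 25.4%. As deposited, the counts were 0 above and 42 below. The share of all genes on the deposited scale is not given here, so those counts cannot be read as particular to the members. The ratio of hepatic to fat sums kept its direction under the alternatives tried, from -2.37 to -1.88 on the log2 scale. For the 5 genes named as most like AOX1, r was 0.957 to 0.998 without single replicates. These genes were picked for the highest r in the same libraries, so this range does not check that choice. No paired analysis was possible because there is 1 group of pigs and no test. Depth is unknown, so values near 0 carry an error that cannot be given.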
